A study of Mus musculus with 4 samples.

Results

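The clustered protocadherins of the mouse are 58 RefSeq genes on chromosome 18 (mm10), counted here as all symbols starting with Pcdha, Pcdhb or Pcdhg inside 3 intervals. The alpha interval runs from 36920285 to 37197663 and holds 14 genes, the beta interval from 37254998 to 37531419 holds 22, and the gamma interval from 37651775 to 37851873 holds 22. Of the 91639 and 63698 H3K27ac peaks that the authors called in Smchd1-deleted and control neural stem cells, 41 and 32 overlapped these intervals. Acetylation of lysine 27 on histone H3 marks active promoters and enhancers. It was profiled by chromatin immunoprecipitation and sequencing (ChIP-seq), with 1 ChIP library and 1 input library (whole-cell extract) for each kind of cell.

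The cells were female neural stem cell lines from embryos of embryonic day 14.5 that carried 1 deleted and 1 floxed Smchd1 allele. All of them had a maternal X chromosome of 129 origin with an Xist deltaA allele and a paternal X chromosome from Castaneus, and the labels name C57BL/6 as strain. For the deleted cells the floxed allele was removed by a retrovirus carrying Cre and puromycin resistance, with puromycin from 24 h on and harvest after 7 days. Control cells were not transduced, so deletion, transduction and selection cannot be told apart. Titles number the line 1 in both groups. Some label fields disagree with the titles. For antibody they give anti-H3K27me3, a different mark. For genotype they give del/fl for the control ChIP, titled fl/fl, and del/del for the control input. Each difference below is between 1 deleted and 1 control library, with no replicate check. Intervals on shares and ratios are exact binomial 95% intervals, cover counting error only, and take neighbouring peaks as independent.

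Clustered protocadherins are cell-surface adhesion proteins that give neurons an identity by which their branches recognise one another. In the alpha and gamma clusters each gene is a variable first exon with a promoter of its own, spliced to constant exons that all genes of the cluster share, while each beta gene has a single coding exon. Neurons switch on a few of the alpha, beta, gamma A and gamma B promoters by stochastic choice, whereas the C-type genes (Pcdhac1, Pcdhac2, Pcdhgc3, Pcdhgc4 and Pcdhgc5) are used more widely. CTCF and cohesin loop the chosen promoters to distant enhancers, DNA methylation silences the others, and Smchd1, a chromatin protein best known from the inactive X chromosome, is known to act at these clusters.

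The table of genes used here gives a start and an end for each gene but no exons. All 14 alpha genes ended between 37187657 and 37188897. Of the 22 gamma genes, 21 ended within 20 bases of 37841873, and the transcribed pseudogene Pcdhgb8 ended at 37840489. The start of a member is therefore its lower coordinate. A variable exon was represented by the window from 500 bases before to 3000 bases after its gene's start, and a peak was placed by its summit. The constant part was the stretch from the last window to the common end, introns included. Variable exons resemble one another in sequence, and how reads matching several copies were treated is not given in the sources used here.

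Acetylation was found mostly at one end of the locus. The gamma cluster held 36 deleted-list and 28 control-list peaks over 200.1 kb. With summits between its first and last gene only, it held 25 and 20. The alpha cluster held 3 and 4 peaks over 277 kb, and the beta cluster held 2 and 0 over 276 kb. Peaks covered 12.8% (deleted list) and 8.54% (control list) of the gamma interval, against 0.90% and 0.68% of the alpha interval and 0.15% and 0% of the beta interval. Within the gamma interval, the 153.6 kb that precede Pcdhgc3 by more than 1 kb held 5 deleted-list and 2 control-list peaks, and the 45.5 kb from the start of Pcdhgc3 on held 30 and 25.

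**Figure D1:**
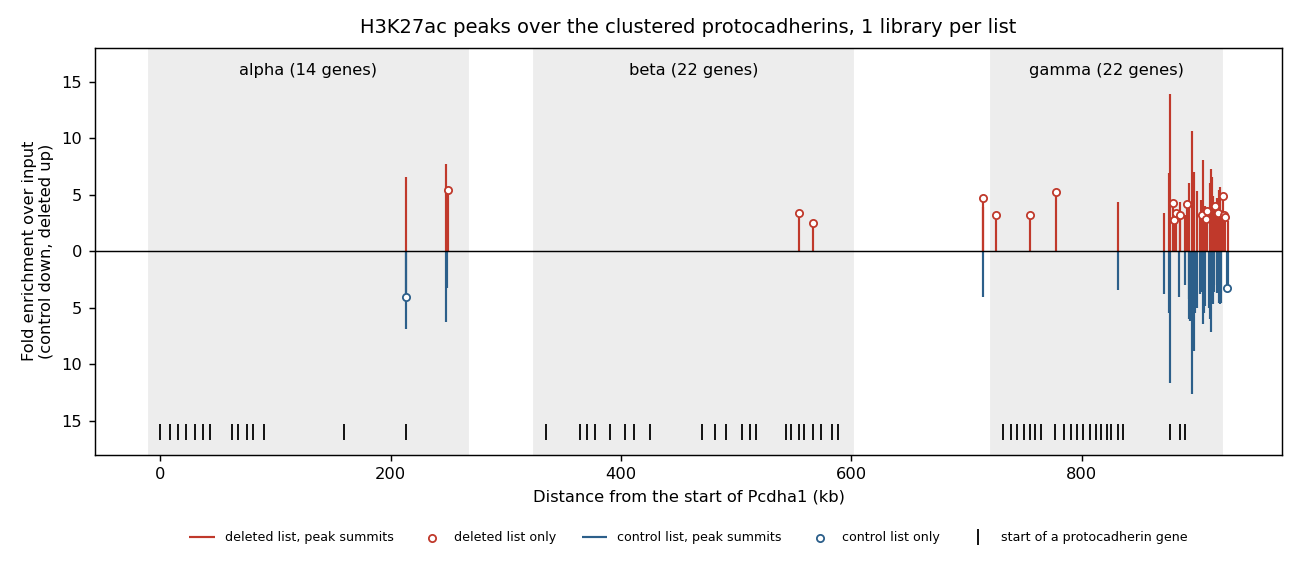
Fold enrichment of each H3K27ac peak over its own input (vertical axis, deleted list upward and control list downward, linear scale) by distance of its summit from the start of Pcdha1 in kb. Grey areas are the 3 intervals, ticks the starts of the 58 genes and open circles peaks of 1 list only. Peaks gather at the right end of the gamma interval, and in the beta interval there are 2 peaks, both in the deleted list only. At folds of 3 to under 5 and under 3, like these 2, 58.8% and 78.6% of deleted-list peaks genome-wide were in that list only.

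Of the 58 gene starts, 5 had a peak within 1000 bases in both lists, against 39.7% of 26794 genes with an annotated start outside chromosome 18. Those other genes counted if any of their annotated starts had a peak, while each member had 1 start, so the measures are not quite alike. A start peak was called for 4 members in deleted cells alone (5.47% of the other genes), for 0 in control cells alone (1.1%) and for 49 in neither (53.7%). Members with a peak in both lists made up 8.62% (2.86 to 18.98), an interval that lies below the genome-wide 39.7%. Those called in deleted cells alone made up 6.90% (1.91 to 16.7), an interval that includes 5.47%, so this count stands near the background. The counts were the same with windows of 500 and 2500 bases.

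The C-type genes held 4 of the 5 start peaks found in both lists. Of the 5 C-type genes these are 80.0% (28.4 to 99.5), against 1 of the other 53, or 1.89% (0.048 to 10.1). The intervals do not overlap, but genes of a cluster are neighbours, and this grouping was described with the peaks already known. None of the 12 alpha genes Pcdha1 to Pcdha12 had a start peak in either list. Among the 22 beta genes 2 had one in the deleted list only, among the 12 gamma A genes 2 had one in the deleted list only, and among the 7 gamma B genes the pseudogene Pcdhgb8 had one in both.

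Pcdhgc3, the first C-type gene of the gamma cluster, carried the highest enrichment of any member start. Its peak ran from 37806439 to 37808996 in the deleted list, with 82 tags at the summit and a fold enrichment of 13.9. In the control list it ran from 37806432 to 37808849, with 57 tags and a fold enrichment of 11.7. These folds stood at the 99.6th and 98.7th percentile of all peaks of their lists, and at the 97.0th and 93.0th percentile of the strongest start peaks of other genes. The summits lay 175 and 180 bases past the annotated start. A smaller peak just before the start, at −336 and −335 bases, was also in both lists (6.88 and 5.45). Both Pcdhgc3 peaks were thus present at matching places in the 2 libraries.

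Pcdhac2, the last variable exon of the alpha cluster, was next among the starts shared by both lists. Its strongest peak had a fold enrichment of 6.55 (38 tags, 360 bases past the start) in the deleted list and 6.86 (33 tags, 411 bases past the start) in the control list. The control list had a further peak of 181 bases at the start itself, from 37143679 to 37143859 (4.04), which ended 56 bases short of the deleted peak and was the 1 control-list peak among 32 in the 3 clusters that overlapped no deleted-list peak. That is 3.13% (0.079 to 16.22) of them, against 24.3% over the genome. With sharing within 2500 bases there were 0 of 32, against 7.91%. Of the 32, 28 lay in the gamma cluster, most of them where deleted-list peaks were dense. Pcdhac1, the other C-type gene of the alpha cluster, had its nearest peak 53780 bases from its start in the deleted list and 53543 bases in the control list. Those nearest peaks are the ones at Pcdhac2.

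Pcdhgc4 and Pcdhgc5 carried weaker start peaks. At Pcdhgc4 the fold enrichment was 4.37 (25 tags) in deleted cells and 4.04 (19 tags) in control cells, with the summit at −39 and −573 bases from the start. The control peak ended 114 bases before the start, while the deleted peak reached across it. At Pcdhgc5 the fold enrichment was 3.19 (18 tags) and 3.03 (14 tags), with summits 122 and 111 bases past the start. Pcdhgb8, a gamma B copy annotated as a transcribed pseudogene, had 4.37 (25 tags) and 3.43 (16 tags), 99 and 123 bases past the start. Among start peaks of other genes these 3 genes stood low, between the 1.27th and the 19.4th percentile.

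**Figure D2:**
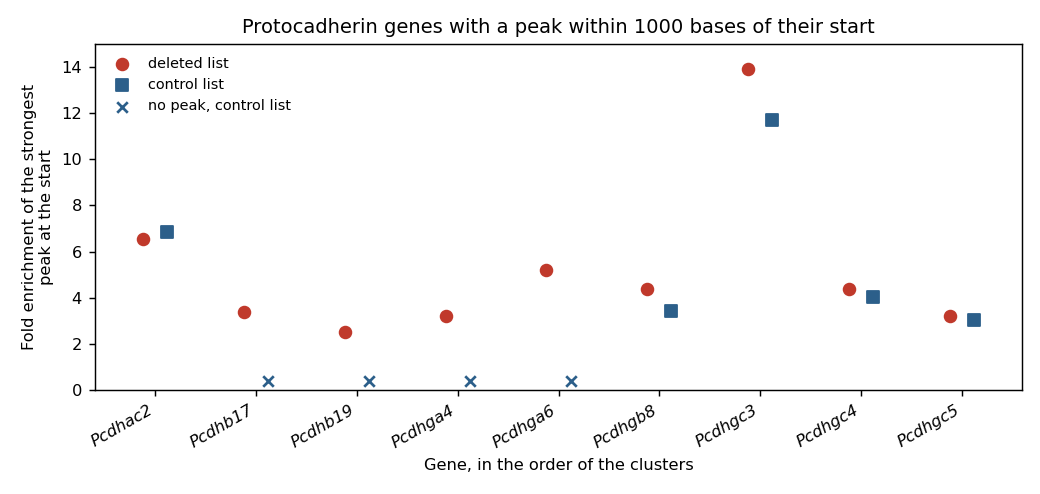
Fold enrichment over input of the strongest peak within 1000 bases of the start (vertical axis, linear), for the 9 members with such a peak, in the order of the clusters. Circles are the deleted list, squares the control list and crosses, drawn near 0 with no value, a start without a control-list peak. Pcdhgc3 stands highest in both lists, at 13.9 and 11.7, and 4 genes have a point in the deleted list only.

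Start peaks in the deleted list only were found at Pcdhb17, Pcdhb19, Pcdhga4 and Pcdhga6. They are 4 of the 53 genes that are not C-type, or 7.55% (2.09 to 18.2), an interval that includes the 5.47% of other genes. At Pcdhb17 the peak from 37485040 to 37485218 had 19 tags and a fold enrichment of 3.36. At Pcdhb19 the peak from 37497046 to 37497289 also had 19 tags, and a fold enrichment of 2.50, over a local input background of 7.00 tags where the genome-wide floor was 4.96. This was the lowest fold among all member peaks of either list. At Pcdhga4 the peak from 37685319 to 37685505 had 18 tags and a fold enrichment of 3.19. The strongest was at Pcdhga6, from 37707241 to 37707498, with 30 tags and a fold enrichment of 5.21. These 4 peaks were short, from 179 to 258 bases, and their summits lay 116 to 288 bases past the gene's start.

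The 4 peaks stood far from any control-list peak. The nearest one was 41217 bases from the peak of Pcdhga4, 54318 bases from that of Pcdhga6, and 158708 and 146637 bases from those of Pcdhb17 and Pcdhb19. For the 2 beta peaks the distance follows from their place, as the control list had 0 peaks in the 464.6 kb from 37179305 to 37643926. Shares over the genome are given for 2500 bases and not for distances of this size. In the whole deleted list 23.9% of peaks had no control peak within 2500 bases. These 4 peaks were picked as having no control-list counterpart, so the closer set is the deleted-only peaks. Of 46366 deleted-only peaks over the genome, 21871 had no control peak within 2500 bases. In their ranking within the deleted list, Pcdhga6 stood at the 81.0th percentile of fold enrichment, Pcdhb17 at the 39.7th, Pcdhga4 at the 30.9th and Pcdhb19 at the 2.40th. At −log10 q of at least 5, Pcdhga6 was the one start of these 4 that still had its peak.

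Acetylation at the starts lay in general just inside the genes. In the deleted list the strongest start peak had its summit past the start in 8 of 9 members, with a median of 123 bases, and in the control list in 4 of 5 members, also with a median of 123 bases. Across the 12101 and 10929 other genes with a start peak the summit was past the start in 71.4% and 71.5%, with medians of 198 and 211 bases. The median fold enrichment of the members' start peaks was below that of other genes, with 4.37 against 7.05 in the deleted list and 4.04 against 6.86 in the control list. In each list 1 member, Pcdhgc3, was above the median of the other genes.

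The constant part of the gamma cluster and the 10 kb past its end had the highest share of covered bases among the segments of the locus. The constant part held 12 deleted-list and 14 control-list peaks in 19.3 kb, yet the fewer deleted-list peaks covered more of it, 64.0% against 41.8% of its bases. Of the bases covered in the control list, 97.0% were also covered in the deleted list, and of those covered in the deleted list 63.3% were covered in the control list. Single wide peaks of the deleted list here faced several narrower control ones. The deleted peak from 37823840 to 37826119 overlapped 3 control peaks, and in the gamma cluster 8 deleted-list peaks overlapped 2 or more control peaks while 3 control-list peaks overlapped 2 or more deleted ones.

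Both lists had their strongest constant-part peak at one place, about 16 kb before the common end. In the deleted list it was the peak from 37823840 to 37826119, with 62 tags and a fold enrichment of 10.6. In the control list it was the peak from 37824510 to 37826070, also with 62 tags, and a fold enrichment of 12.6, the highest of all control-list member peaks. The next peak toward the common end reached into Gm29994, a lncRNA gene from 37827111 to 37830230. It had 6.95 in deleted cells (44 tags, 37826412 to 37828216) and 8.88 in control cells (43 tags, 37826452 to 37827711). Nearer the common end, a further pair of peaks had 8.06 in deleted cells (37835162 to 37836225) and 6.46 in control cells (37835135 to 37835743).

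Other strong peaks of the constant part were grouped around these. Just before the strongest one the deleted list had a single peak from 37821873 to 37823711 (6.04), which overlapped 2 control peaks, from 37822688 to 37823129 (6.05) and from 37823254 to 37823842 (4.24). A control peak from 37823927 to 37824255 (6.20) lay inside the strongest deleted-list peak. Across the common end the deleted list had its longest member peak, 2867 bases from 37839282 to 37842148 (6.04). It overlapped 2 shorter control peaks, of which the stronger ran from 37840984 to 37841747 (6.05). In the control list 2 more constant-part peaks, from 37827810 to 37828185 and from 37836015 to 37836309, had a fold enrichment of 5.45. Peaks of at least 5 made up 36.1% and 46.4% of the gamma peaks, against 20.9% and 28.9% of the whole lists.

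The shared acetylation ran on past the last exon of the gamma genes. In the 10 kb past the common end the lists held 10 and 8 peaks, which covered 62.5% and 49.99% of the bases. The strongest lay 666 and 674 bases past the end, with 7.26 (37842322 to 37842722) and 7.20 (37842372 to 37843732). Further deleted-list peaks there ran from 37842883 to 37843577 (6.55) and from 37850049 to 37851438 (5.71), and both overlapped control peaks. The lower coordinate of Diaph1, which encodes an actin-nucleating formin, lies 1.73 kb past the common end, so most of this stretch is also part of that gene. Regulatory elements of the beta and gamma clusters are known from the side of the gamma constant exons that faces Diaph1. Whether any of these peaks marks such an element was not tested.

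**Figure D3:**
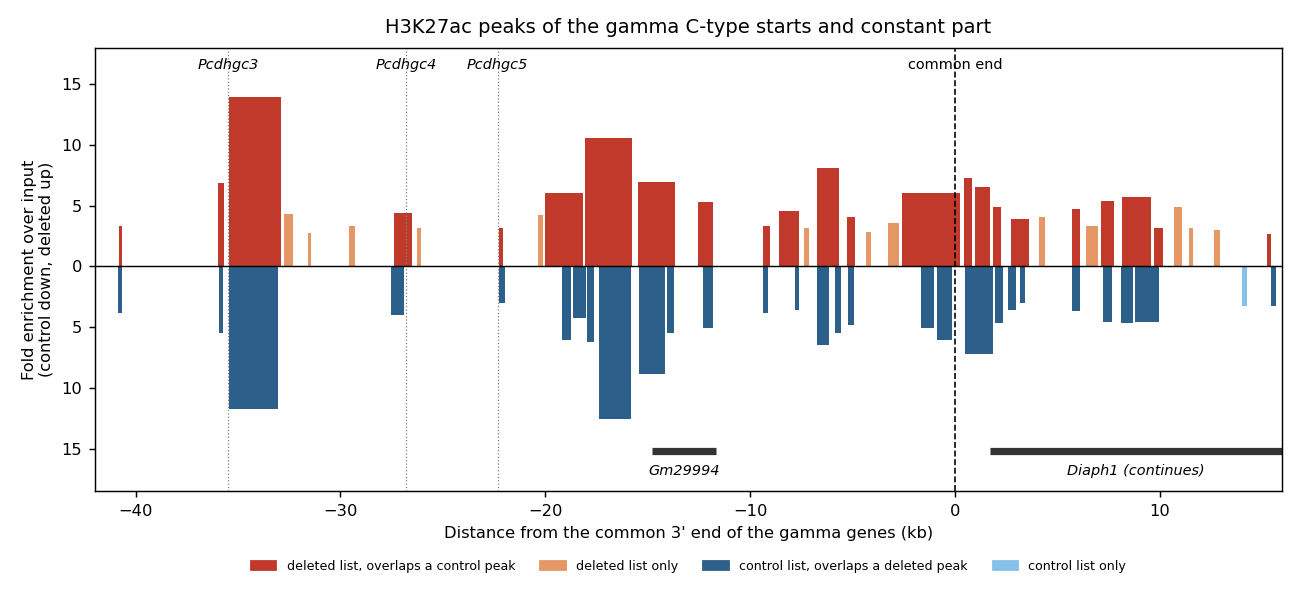
H3K27ac peaks drawn to width, by distance from the common 3′ end of the gamma genes in kb, with fold enrichment over input as height (linear, deleted list upward, control list downward). Lighter boxes are peaks of 1 list only, dotted lines the starts of Pcdhgc3, Pcdhgc4 and Pcdhgc5. The tallest box of the deleted list is at Pcdhgc3 (13.9) and that of the control list in the constant part (12.6), and the lighter boxes lie between or beside boxes of both lists.

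In the gamma cluster 13 of 36 deleted-list peaks, or 36.1% (20.8 to 53.8), overlapped no control-list peak, against 50.6% on chromosomes 1 to 19 and X and 51.5% on chromosome 18. Conversely 0 of 28 control-list peaks, or 0% (0 to 12.3), lacked an overlapping deleted-list peak, against 24.3% and 24.6%. The deleted-only interval includes the genome-wide value, and the control-only interval lies below it. Of the 28 control-list peaks, 14 lay in the constant part and 8 past the common end. Deleted-list peaks covered 64.0% and 62.5% of the bases there, so an overlap of 1 base is easily met. The low control-only share therefore cannot be told apart from the density of deleted-list peaks. The ratio of deleted-list to control-list peaks was 1.29 (0.763 to 2.19), an interval that includes the genome-wide 1.44. For bases covered the ratio was 1.505 in the gamma cluster and 1.48 over the genome. These gamma values include the 10 kb past the common end. The deleted ChIP library was also 1.28 times as deep, with 54194233 filtered tags against 42277672, and depth and genotype cannot be told apart in the length of the lists.

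By enrichment, the gamma cluster was shared where it was strong, as peaks were over the genome. At a fold enrichment of at least 5 each list had 13 gamma peaks, and 1 and 0 of them were in 1 list only, the 1 being Pcdhga6. Over the genome 4.17% and 1.28% of such peaks were in 1 list only. Between 3 and 5 there were 21 deleted-list peaks with 10 in that list only, against 58.8% over the genome, and 15 control-list peaks with 0, against 32.8%. Both deleted-list peaks under 3 were in that list only, against 78.6%.

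The 13 deleted-only gamma peaks fell into 2 kinds. Pcdhga4, Pcdhga6 and a peak 6.00 kb before the start of Pcdhga1 (37655716 to 37655934, 3.19) lay over 10 kb from any control-list peak. The other 10 lay 252 to 1773 bases from one, all from Pcdhgc3 on. Of these 10, 2 followed the Pcdhgc3 peak (37809132 to 37809542 with 4.29, and 37810279 to 37810449 with 2.71). Between Pcdhgc3 and the constant part there were 3 more, from 37812284 to 37812565 (3.36), from 37815596 to 37815786 (3.19), just inside Pcdhgc4, and from 37821513 to 37821762 (4.20), in the window of Pcdhgc5.

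The constant part itself had 3 deleted-only peaks, from 37834516 to 37834744 (3.19), from 37837542 to 37837768 (2.85) and from 37838596 to 37839125 (3.53). Past the common end there were 2, from 37845978 to 37846264 (4.03) and from 37848275 to 37848867 (3.33). These 10 peaks fill gaps within a stretch that is acetylated in both lists. When control depth was allowed for by multiplying each deleted-only pileup by the ratio of filtered tags, 0.780, the 16 deleted-only peaks of the 3 clusters had 12.5 to 24.2 tags, and the lowest pileup of any control-list peak was 12. Thus 16 of 16 reached 12 tags on this scale, and over the genome 91.3% of deleted-only peaks did, so the members stand near the background. The 12 tags belong to control-list peaks at the floor of the local input, and 13 of the 16 were at the floor of their own list. Over a higher local input, as at Pcdhb19, more tags are needed, so reaching 12 does not show that a peak would be called. The lists give no control pileup at these positions.

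The alpha cluster was acetylated at Pcdhac2 and at one place in its constant part. The first 222.9 kb of the interval, from before Pcdha1 to just before Pcdhac2, had 0 peaks in both lists. In the constant part, about 35 kb past the start of Pcdhac2, the deleted list had a peak of 1491 bases from 37177771 to 37179261 (7.72, 45 tags). The control list had 2 peaks over the same place, from 37178000 to 37178720 (6.25, 30 tags) and from 37178806 to 37179304 (3.29, 22 tags). The deleted list had another peak 908 bases further from the last of these, from 37180213 to 37180651 (5.37, 31 tags), which was its only alpha peak without an overlapping control peak. An enhancer of the alpha cluster is known from its constant part. Whether these peaks mark it was not tested.

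The space between the clusters was nearly without peaks. The 57.3 kb between the alpha and beta intervals and the 100 kb before the alpha interval had 0 in both lists. The 120.4 kb between the beta and gamma intervals held 2 deleted-list peaks and 1 control-list peak, all at one end of Taf7 (37640491 to 37644204), which encodes a subunit of the general transcription factor TFIID. One pair was shared, from 37643866 to 37644128 (3.86) in the deleted list and from 37643927 to 37644101 (4.04) in the control list. The other, from 37644367 to 37644612 (4.70), was in the deleted list only, 265 bases from the control peak. Slc25a2, which encodes a mitochondrial ornithine carrier beside Taf7, had none.

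**Figure D4:**
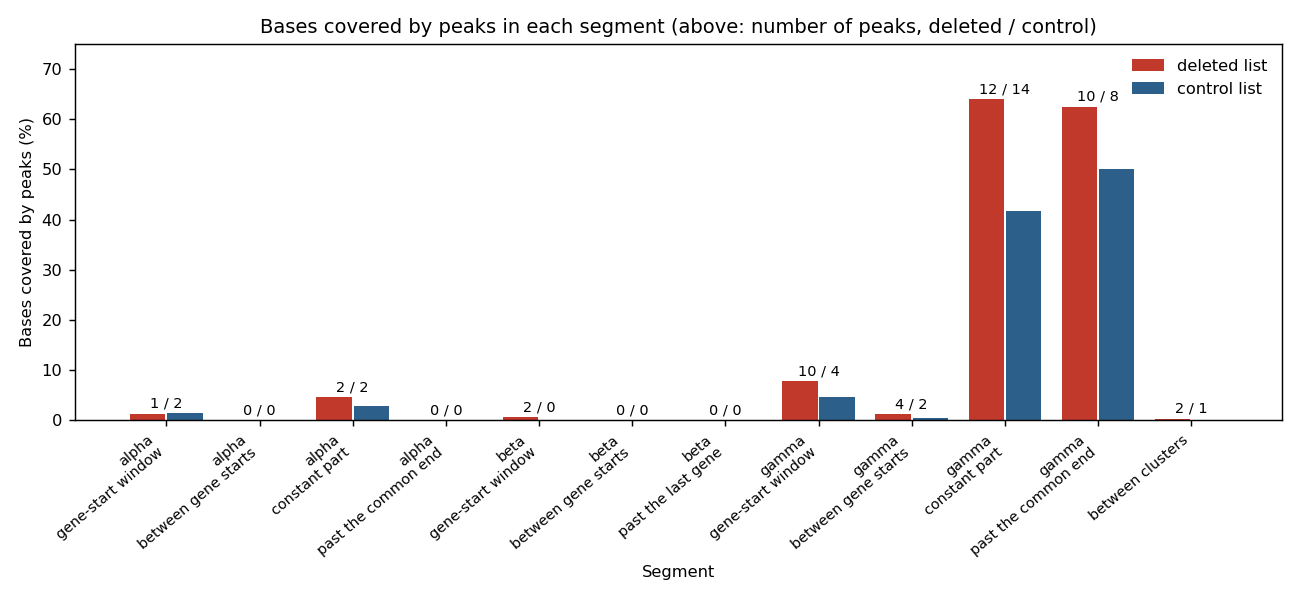
Percentage of bases covered by peaks (vertical axis, bars from 0) in each segment of the 3 clusters and in the space between them, for the deleted and the control list, with the number of peaks of both lists above the bars. The gamma constant part (64.0% and 41.8%) and the 10 kb past the common end (62.5% and 49.99%) stand above all other segments, and the gene-start windows of the gamma cluster reach 7.80% and 4.66%.

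Genes that act on protocadherin choice or bind the proteins were compared by peaks within 1000 bases of either gene end. Starts that lie further inside a gene were not examined, so a gene without such a peak may have an acetylated start there. Genes named with values in these lists were picked after their values were seen. Of 34324 protein-coding and lncRNA genes, such a peak was called in both lists for 38.7%, in deleted cells alone for 6.65% and in control cells alone for 1.45%. The clustered protocadherins themselves had one in both lists at 23 of 58 genes (39.7%), in deleted cells alone at 2 and in control cells alone at 0, close to those shares. For the gamma genes this measure counts the same peaks at the common end repeatedly. The lists that follow hold protein-coding genes only, whereas the 34324 genes include lncRNA genes. Of 17 regulators 12 had one in both lists, among them Ctcf (13.4 deleted, 9.89 control), which encodes the loop anchor CTCF, Wapl (11.2 and 11.1), whose product releases cohesin from DNA, and Rest (11.6 and 6.25), a repressor of neuronal genes. Smchd1 itself had 7.72 and 8.88, and no peak of this mark can check the deletion. Dnmt1, Dnmt3a, Nipbl, Rad21 and Stag1 had none in either list, and 0 of 17 were in 1 list only. Of 11 genes for intracellular partners and proteases of the protocadherins 8 had a peak in both lists and 0 in 1 list only, with the highest at Wasf1 (14.9 and 12.8), a subunit of the WAVE complex.

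The non-clustered protocadherins, single genes of the same superfamily, had such peaks in both lists at 7 of 12 members and in 1 list only at 0. The highest were at Pcdh10 (8.83 and 7.87). The Ugt1a genes, glucuronosyltransferases of the liver with variable first exons joined to shared exons like those of the alpha and gamma clusters, had one at 1 of 9, and the 39 Hox genes at 0. Among 8 markers of neural stem cells 7 had such peaks in both lists, with Pax6 the exception, and Sox2 had 20.7 and 20.6. Of the neuron markers they were found at 2 of 9 (Gap43 and Syt1), fibroblast markers at 1 of 6 (Col1a1) and oligodendrocyte markers at 0 of 4. Of 4 astrocyte markers 2 had peaks in both lists and Gfap (4.03) in the deleted list only. What part such cells have in the start peaks of Pcdhb17, Pcdhb19, Pcdhga4 and Pcdhga6 was not tested. In cell populations, a weak peak in many cells and a strong one in few cannot be told apart.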

How the data were processed

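H3K27ac ChIP-seq peak lists of 1 Smchd1-deleted and 1 control library, each called by the authors against its own input, were analysed. The aligner was Bowtie 0.12.9 and the build mm10, per the submitters' processing notes. Narrow peaks were called with MACS2 2.1.0.20140616 at a q-value limit of 0.05, where the larger data set was sampled down and duplicates were reduced to 1 tag, per the file headers. The deposited pileup signal is the tag height at the summit. The deposited −log10 p and q are MACS2's own, and the fold enrichment is a ratio over the local background within 1 library, used only to describe, rank or filter within a list. Input libraries kept 77101643 and 80601280 tags.

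Comparisons used chromosomes 1 to 19 and X, and sharing meant an overlap of at least 1 base with the other list. The local input background was recovered as (pileup + 1) / fold − 1. Genes came from RefSeq (GRCm38.p6), and starts of other genes from the RefSeq promoter table of that build, which gave no start for the members here. No sequence is printed. Members and lists were chosen with earlier results of these data known. Named were all members with a start peak, the last member of each cluster (Pcdhb22 had none), all alpha and beta peaks, the 10 strongest gamma peaks of each list and all gamma peaks of 1 list only. Overlap rules and intervals were tested on simulated data. Python 3.11.15, pandas 2.3.3 and scipy 1.17.1 were used.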

Additional observations from a re-analysis of the deposited data

How the results depend on the processing

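Of 135 values under alternative settings, 114 stayed within 1.5 times the reported count, or for the gamma ratio within its interval, and 21 did not. The 114 include counts of 0 that stayed 0, which a stricter peak limit could not change, so this tally is no measure of robustness. At −log10 q of at least 5 the beta cluster kept 0 deleted-list peaks and the gamma cluster 23. Of these 23, 4 were in that list only by overlap with all control peaks, and the beta cluster had 0 such peaks. No share over the genome is given at this limit. A minimum fold of 3 left the beta cluster 1 peak, also list-only. A minimum fold of 5 left 2 control-list peaks in the alpha cluster, 0 deleted-list peaks in the beta cluster and 13 in each list in the gamma cluster. In lists of equal length, the deleted list shortened to its peaks of highest −log10 p, the beta cluster kept 1, again list-only. With sharing within 500 bases the alpha cluster had 0 control-only peaks. With sharing within 2500 bases, a setting chosen after seeing the data, it had 0 deleted-only and 0 control-only peaks. The gamma cluster then had 3 deleted-only peaks of 36, against 23.9% of the whole deleted list. With windows from 1000 bases before to 2500 bases after the start, or with any overlap, 1 control-list peak lay between gamma gene starts in place of 2. Joining peaks less than 1000 bases apart left 2 control-list regions in the alpha cluster and 13 deleted-list and 12 control-list regions in the gamma cluster. The gamma ratio was 1.10 with the q-value limit, 1.21 with a minimum fold of 3 and in lists of equal length, and 1 with a minimum fold of 5. No paired analysis was possible because each group has 1 library. Without replicates no value has an error between cultures, and a peak missing from a list shows only that it was not called at that depth.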

Other observations

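Diaph1 held a further group of peaks beyond the gamma interval. Between 30 and 50 kb past the common end of the gamma genes each list had 9 peaks. In each list 1 of the 9 had no overlap in the other, against 50.6% (deleted) and 24.3% (control) over the genome. The highest folds were 6.72 (deleted) and 7.76 (control). They covered 23.6% and 21.5% of that stretch. Between 16 and 30 kb past the end both lists had 0. Sharing was less complete over the whole 100 kb past the gamma interval. There 5 of 16 deleted-list and 3 of 13 control-list peaks had no overlap in the other list, beside the same 50.6% and 24.3%. In all, 22 deleted-list and 21 control-list peaks overlapped Diaph1, counting those inside the gamma interval. At the far end of Diaph1, next to Hdac3, which encodes a histone deacetylase, the strongest peak had 8.56 in the deleted list (37934572 to 37935399) and 9.08 in the control list (37934646 to 37935337).

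The gene table also lists Gm37013, Gm38666 and Gm38667, protein-coding entries that begin among the alpha genes (at 36952648, 36967631 and 36973802) and end with the gamma genes at 37841873. Each spans 33 deleted-list and 25 control-list peaks of this locus, and none of these genes had a peak at its start.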
